A study of Homo sapiens with 2 samples.

Results

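The 10 genes PLIN2, PLIN3, DGAT1, DGAT2, PNPLA2, ABHD5, FABP5, CD36, ANGPTL4 and HILPDA store, coat, break down and move fat in cells. They were followed here in a human glioblastoma line on expression arrays. They were chosen on earlier results of the same arrays, around the low signal of PLIN2 in the culture that overexpressed a microRNA, so every difference of these genes between the arrays is a description. All probe sets that the platform annotation ties to exactly 1 of these symbols were taken, which gave 22 of 54675 probe sets. All 10 genes, of 19775 named genes, had a probe set above the filter on dim signals explained below, which 11985 genes passed.

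The study compared 2 cultures of LN229, an established human glioblastoma cell line, grown in DMEM with FBS. One carried the plasmid pSUPER.neo with an insert that drives the microRNA miR-127-3p, and the control carried pSUPER.neo alone. The labels do not say whether either culture was 1 clone, and the mature microRNA itself was not measured on these arrays. There was 1 array per group, so no test between groups was possible, no p-value is given and no difference has a replicate check.

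A microRNA guides a silencing complex to transcripts that pair with its seed, the bases near its 5′ end. The mature sequence from RefSeq is shown because its overexpression is what the labels name as the difference between the cultures. It lies on the plus strand at chr14:100883035-100883056 of GRCh38.p14, with its seed, bases 2 to 8, in capitals.
hsa-miR-127-3p: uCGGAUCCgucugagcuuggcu

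Cells keep spare fatty acids as triglyceride in lipid droplets. The diacylglycerol acyltransferases DGAT1 and DGAT2 make the triglyceride, and perilipins such as PLIN2 and PLIN3 coat the droplet. Adipose triglyceride lipase, encoded by PNPLA2, starts the breakdown with its coactivator ABHD5, and HILPDA inhibits it. CD36 takes part in fatty acid uptake, FABP5 carries fatty acids through the cytosol, and the secreted protein ANGPTL4 inhibits lipoprotein lipase outside the cell. Glioblastoma cells are known to hold lipid droplets, and HILPDA and ANGPTL4 are also known as genes induced by low oxygen.

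Signals are intensities in arbitrary units on a linear scale, and their median was 93.9 in the control and 83.3 with miR-127-3p. No signal is listed at 0. A log2 ratio is log2(signal + 1) with miR-127-3p minus that of the control, less the median over all genes. Probe sets of the same gene differed in this ratio by 0.41 (SD per probe set, from 5974 pairs), a spread that holds no variation between cultures. A gene is given by its brightest probe set above the filter, and a signal below the median of its own array is treated as dim, so that a fold against it is a lower limit. That limit is not a detection call.

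The labelled cell type and other cell types were checked on marker genes, and the epithelial list differed widely between the arrays. Of 8 glial or glioblastoma markers, 6 were above the median on both arrays, among them S100B and CD44. SOX2 gave 3893 in the control and 1656 with miR-127-3p and NES gave 1804 and 893 at their brightest probe sets. Both were thus above the median but lower with miR-127-3p by over 2-fold there. At another probe set SOX2 gave 715 and 264, also past 2-fold, while NES gave 480 and 352, within 2-fold. The astrocyte proteins GFAP and AQP4 were dim on both arrays. Of 11 epithelial markers with a probe set, 9 were above the median on the control array and 2 on the miR-127-3p array. Their signals summed to 93137 in the control and 7356 with miR-127-3p, and the adhesion protein EPCAM gave 9181 and 30.2. Of 9 hepatocyte markers only SERPINA1 was above the median, with 2324 in the control, and it gave 65.2 with miR-127-3p. The same 2 arrays carry every value that follows, and the part of these markers in them was not tested. Whether both cultures are the same line was not tested either, so a difference between the arrays is a difference between these cultures, whatever its source. The total RNA of a culture cannot tell fewer cells of a type from less RNA per cell.

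Of the 10 genes, PLIN2, FABP5 and HILPDA were lower with miR-127-3p by 2-fold or more, which makes 3, and only CD36 was higher by that much. The other 6 lay within 2-fold, 3 below 0 and 3 above it. Among all genes that passed the filter, 8.67% were lower by 2-fold or more and 5.06% higher. Since the genes were picked with these values known, nothing is read from the difference between the shares. The median log2 ratio of the 10 genes was -0.37, against 0 for all genes by construction. Of their 22 probe sets, 15 were brighter on the control array and 7 on the miR-127-3p array. Of these probe sets, 4 were dim on both arrays.

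**Figure D1:**
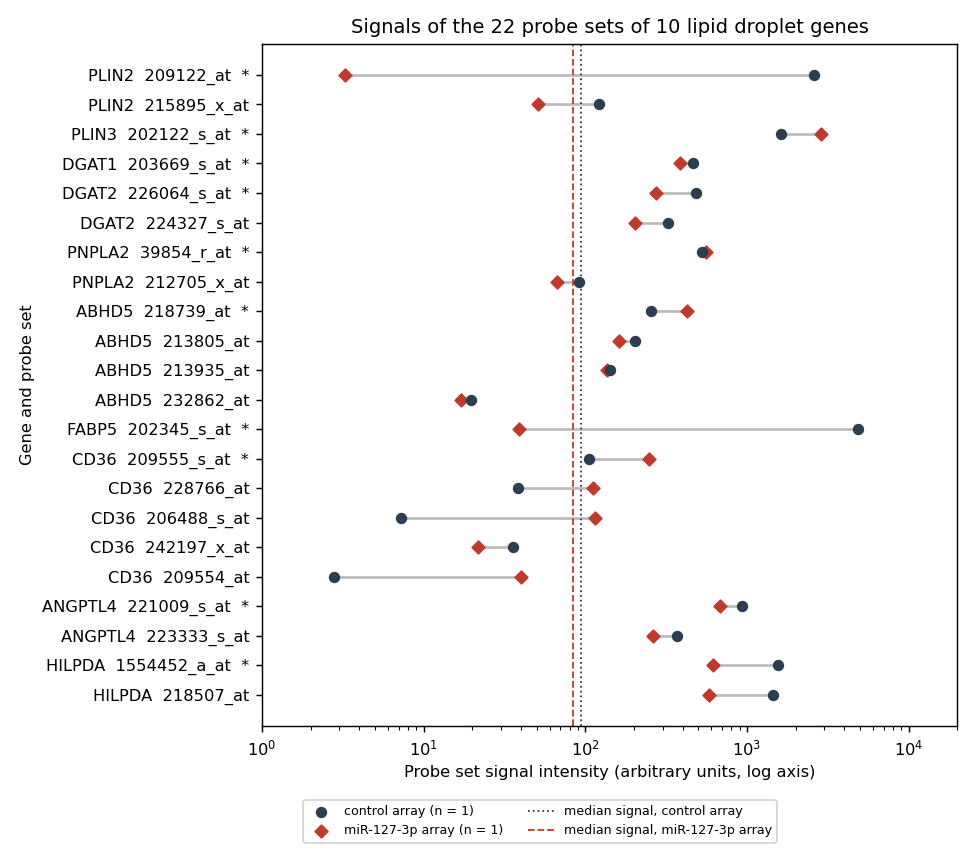
Signal intensity (arbitrary units, log axis) of each of the 22 probe sets on the control array (circles) and the miR-127-3p array (diamonds), 1 array each, with the median signal of each array as a vertical line and the probe set that stands for its gene marked with an asterisk. The main probe set of PLIN2 and that of FABP5 cross from far above the medians in the control to below them with miR-127-3p. The second PLIN2 probe set starts at 121, not far above the control median. Of the 5 CD36 probe sets 4 are brighter with miR-127-3p, and only the brightest is above the median on both arrays.

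The droplet coat genes PLIN2 and PLIN3 differed in opposite directions. PLIN2 encodes the perilipin found on droplets of nearly all cell types. Its main probe set gave 2603 in the control and 3.26 with miR-127-3p, a log2 ratio of -9.27. The signal with miR-127-3p was dim, and against the median of that array PLIN2 was at least 31.1-fold lower. Its place among the lowest genes has no order, since it rests on that dim signal. The second PLIN2 probe set, whose suffix marks possible cross-hybridisation, was much closer to background. It gave 121 in the control and 50.6 with miR-127-3p, a log2 ratio of -1.25. Both probe sets were thus above the median in the control and dim with miR-127-3p, but they differed widely in the size of the difference.

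PLIN3 encodes a perilipin that moves from the cytosol onto newly formed droplets. Its single probe set gave 1615 in the control and 2864 with miR-127-3p, a log2 ratio of 0.81 or 1.76-fold higher. This was past the spread between probe sets but within 2-fold, and 7.94% of genes had a higher ratio. PLIN3 was well above the median on both arrays.

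The RefSeq promoter table of GRCh38.p14, 250 bases before to 50 after each start, held entries for 6 of the 10 genes, and DGAT1, DGAT2, FABP5 and HILPDA were not searched. It was searched on both strands for ACGTG, the core of the element bound by hypoxia-inducible factors, and for the E-box CACGTG, which contains ACGTG on each strand. Of the 6 genes searched, PLIN2 and ANGPTL4 held ACGTG. In PLIN2 it occurred in 2 places and CACGTG was 1 of them. Of 35116 promoter entries, 21.4% held ACGTG, 3.40% held it in at least 2 places and 7.26% held CACGTG. The match is a description of these letters and not a measured binding site. The 2 stretches lie on the minus strand, at chr9:19127596-19127624 and chr9:19127545-19127573, and the matches begin 120 and 69 bases before the start. They are shown 5′ to 3′ on the strand of the gene with the match in capitals.
PLIN2 upstream stretch 1: gagggcgccgggACGTGcccgagggtgac
PLIN2 upstream stretch 2: gctgccgcgggtCACGTGctgcggaggct

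The triglyceride-forming enzymes DGAT1 and DGAT2 were both on the lower side, neither by 2-fold. DGAT1, which also esterifies fatty acids taken up from outside, gave 464 in the control and 384 with miR-127-3p. Its log2 ratio of -0.28 was smaller than the spread between probe sets. DGAT2, an enzyme linked to newly made fatty acids, gave 484 in the control and 273 with miR-127-3p at its brighter probe set, a log2 ratio of -0.83. The other probe set gave 325 and 202, a ratio of -0.70. Both DGAT2 probe sets therefore ran the same way at a similar size, and 11.3% of genes had a lower ratio than DGAT2.

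The lipase gene PNPLA2 differed little between the arrays and its coactivator ABHD5 had probe sets on both sides of 0. PNPLA2 gave 523 in the control and 557 with miR-127-3p, a log2 ratio of 0.08. Its other probe set was dim on both arrays, with 91.1 and 66.5. ABHD5 gave 254 in the control and 426 with miR-127-3p at its brightest probe set, a ratio of 0.73. The other probe sets of ABHD5 gave ratios of -0.35, -0.08 and -0.22, the last from signals dim on both arrays. With the mean of its 3 probe sets above the filter ABHD5 was at 0.10, so its ratio depends on the probe set taken.

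HILPDA, the droplet protein that inhibits the PNPLA2 lipase, was lower with miR-127-3p at both of its probe sets. The brighter gave 1555 in the control and 618 with miR-127-3p, a log2 ratio of -1.34 or 2.54-fold lower. The other gave 1440 and 583, a ratio of -1.31. All 4 signals were above the array medians, and the ratios differed by less than the spread between probe sets. Of all genes, 5.21% had a lower ratio than HILPDA. The second oxygen-responsive gene of the group, ANGPTL4, gave 936 in the control and 685 with miR-127-3p, a log2 ratio of -0.46. Its other probe set gave 367 and 260, a ratio of -0.50. ANGPTL4 was thus lower at both probe sets by a little more than the spread between probe sets, and 22.5% of genes had a lower ratio.

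**Figure D2:**
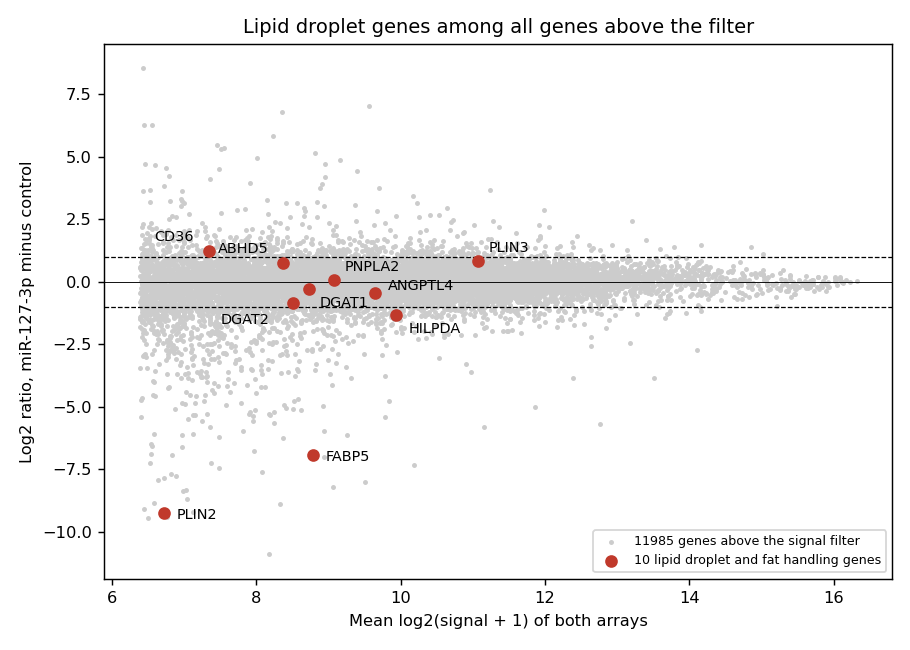
Log2 ratio, miR-127-3p minus control, of each gene against its mean log2(signal + 1) on both arrays (1 array per group), for 11985 genes above the filter (grey) and the 10 lipid droplet and fat handling genes (red), with dashed lines at 2-fold. PLIN2 at -9.27 and FABP5 at -6.94 lie far below the other 8 genes, which lie between -1.34 and 1.21.

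FABP5, the epidermal-type fatty acid-binding protein that many tumour cells express, had the other very low value. Its single probe set gave 4843 in the control and 38.9 with miR-127-3p, a log2 ratio of -6.94. The miR-127-3p signal was dim, and against the array median FABP5 was at least 57.9-fold lower. The probe set carries a suffix for shared sequence, and FABP5 has near-identical pseudogene copies, so the share of each copy in the signal is uncertain. As for PLIN2, the gene was bright in the control and dim with miR-127-3p, and no second FABP5 probe set was there to compare.

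CD36, a scavenger receptor that takes up long-chain fatty acids and oxidised lipoproteins, was the gene on the higher side. Its brightest probe set gave 105 in the control and 246 with miR-127-3p, a log2 ratio of 1.21 or 2.32-fold higher. The control signal was close to the array median of 93.9. Of the other CD36 probe sets, 1 gave 7.26 in the control and 114 with miR-127-3p and another 38.2 and 112. Their control signals were dim, so these support only at least 1.21-fold and 1.18-fold higher. The remaining ones were dim on both arrays, with 2.79 and 40.0 and, in the opposite direction, 35.6 and 21.7. CD36 was therefore brighter with miR-127-3p at 4 of 5 probe sets, while only its brightest one was above the median on both arrays.

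CD36 is also known from macrophages, endothelial cells and fat cells, and their markers were at or below the medians with few exceptions. Of 5 macrophage markers, 1 was above the median on each array. In the control it was CD14, with 104 there and 68.2 with miR-127-3p. On the miR-127-3p array it was CSF1R, with 57.7 in the control and 91.5 with miR-127-3p. Of 5 endothelial markers only PECAM1 was above it, with 245 in the control and 302 with miR-127-3p at its brightest probe set. At another PECAM1 probe set, above the median on both arrays, the signals were 115 and 233, just past 2-fold higher. A further PECAM1 probe set gave 40.5, which was dim, and 84.0, barely above the median. The remaining ones were dim on both arrays, with 22.9 and 33.4 and, in the opposite direction, 3.48 and 2.16. Of 6 fat cell markers 1 was above the median in the control and 2 with miR-127-3p. The fat cell perilipin PLIN1 gave 17.0 in the control and 21.1 with miR-127-3p, and FABP4 gave 56.3 and 149. The other 4, CIDEC, LIPE, ADIPOQ and LEP, were brighter in the control. CIDEC, above the median on both arrays, gave 194 in the control and 164 with miR-127-3p. LIPE, ADIPOQ and LEP were dim on both arrays. The sums over the lists were 254 in the control and 285 with miR-127-3p for macrophages, 411 and 355 for endothelial cells, and 416 and 403 for fat cells. These sums include dim signals. All endothelial markers but PECAM1 were dim on both arrays. Of those summed, VWF and TEK were brighter in the control and CDH5 and KDR with miR-127-3p. The part of these cell types in the CD36 value was not tested.

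Among the relatives of PLIN2 and FABP5 no probe set was far above the median in the control and dim with miR-127-3p. Of the other perilipins, PLIN1 and PLIN4 were dim on both arrays at their only probe sets. PLIN5, a perilipin of cells that burn much fat, gave 129 in the control and 204 with miR-127-3p at its brightest probe set, a ratio of 0.64, and its other probe sets were dim on both arrays. Among fatty acid-binding proteins, FABP7, the brain type made by radial glia and glioma cells, was bright on both arrays. It gave 6421 in the control and 4556 with miR-127-3p, a ratio of -0.51, and its next probe set was at -0.65. FABP6, the ileal bile acid-binding protein, gave 491 and 700, a ratio of 0.50. FABP4, the fat cell type, was dim in the control and gave 149 with miR-127-3p, at least 1.57-fold higher. FABP1, FABP2 and FABP3 were dim on both arrays at all their probe sets.

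**Figure D3:**
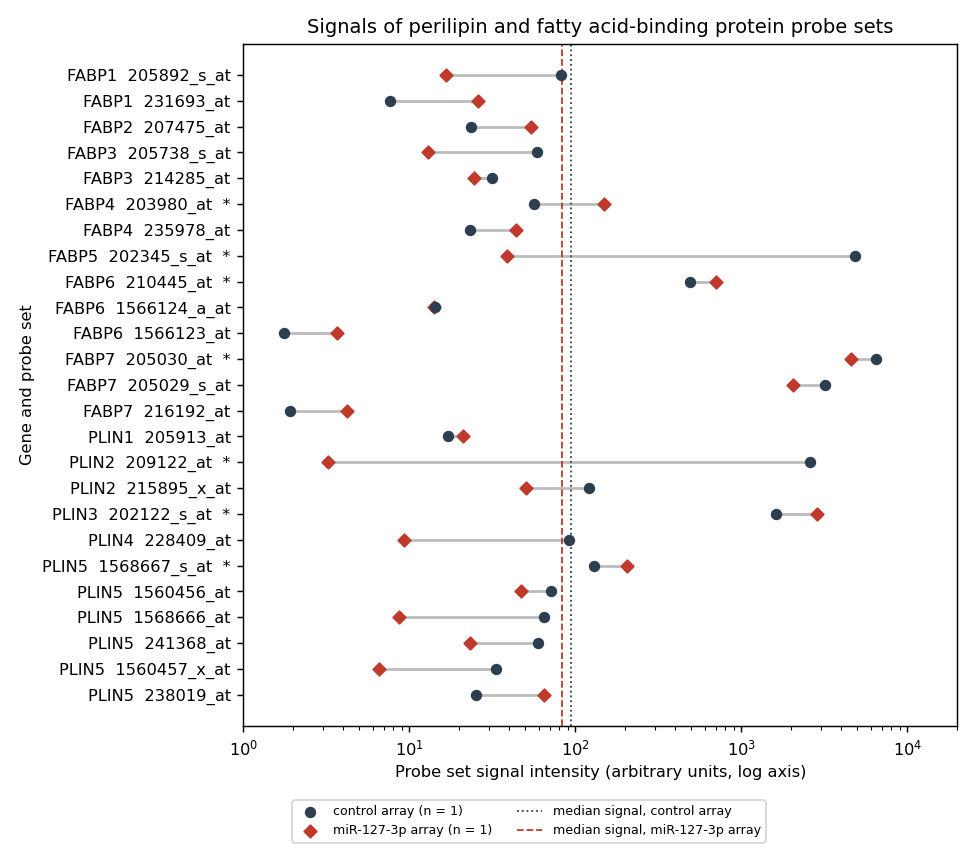
Signal intensity (arbitrary units, log axis) of the perilipin and fatty acid-binding protein probe sets on the control array (circles) and the miR-127-3p array (diamonds), 1 array each, with array medians as vertical lines and an asterisk at the probe set that stands for its gene. The main probe set of PLIN2 and that of FABP5 show long lines that start far above the medians and end below them. FABP7, at 6421 and 4556 at its brightest probe set, stays far above the medians on both arrays.

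Other genes of fat storage and use were taken from 7 lists of 94 genes, written from textbook roles with some earlier results of these arrays known. Of these, 85 had a probe set with 1 symbol and 62 were above the filter. Of these, 5 genes (8.06%) were lower by 2-fold or more and 4 (6.45%) were higher, or 3 with dim signals set to the array median. The shares are near the 8.67% and 5.06% of all genes, so nothing is read from them for these lists as a whole. Their median log2 ratio was 0.06.

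Enzymes of triglyceride and steryl ester synthesis all stayed within 2-fold at their brightest probe set. Of 10 genes above the filter the highest was LPIN1, a phosphatidate phosphatase, at 0.84, and the lowest its relative LPIN2 at -0.62. The list median was 0.03. SOAT1, which esterifies cholesterol for storage in droplets, was at -0.46 at its brightest probe set and at 1.13 at another, so its probe sets disagreed. A second probe set of LPIN2 gave 882 in the control and 405 with miR-127-3p, a log2 ratio of -1.13. A second probe set of AGPAT5, an acyltransferase, gave 535 and 261, a log2 ratio of -1.05. A second probe set of AGPAT4, another acyltransferase, was at least 2.02-fold higher against a dim control signal.

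Of 7 droplet coat and assembly genes that passed the filter, TMT1B alone was past 2-fold. TMT1B, a droplet-associated methyltransferase also known as METTL7B, gave 1333 in the control and 210 with miR-127-3p and was 6.39-fold lower. Its relative TMT1A gave 2020 and 3478, a ratio of 0.77. FITM2, which helps droplets bud from the endoplasmic reticulum, was at 0.64 and the droplet-linked GTPase RAB18 at 0.29. The list median was 0.46.

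Among 7 genes of lipolysis above the filter only LIPG passed 2-fold. LIPG, endothelial lipase, gave 76.6 in the control and 577 with miR-127-3p and was at least 6.05-fold higher. LIPA, lysosomal acid lipase, gave 8937 in the control and 5139 with miR-127-3p, a ratio of -0.81. MGLL, which completes triglyceride breakdown, was at 0.77. LPL, the enzyme that ANGPTL4 inhibits, gave 119 in the control and 78.3 with miR-127-3p. Its second probe set gave 185 and 34.6, and the miR-127-3p signal was dim at both.

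The filter on the mean of both arrays kept out 4 genes with 1 dim array that were singled out after their values were seen. G0S2, another inhibitor of the PNPLA2 lipase, gave 124 in the control and 4.16 with miR-127-3p, at least 1.5-fold lower. PNPLA4, a relative of PNPLA2, gave 269 and 2.58, at least 3.22-fold lower, and its other probe set gave 97.9 and 2.41. SLC27A2, a fatty acid transporter and acyl-CoA synthetase, gave 296 and 4.35 at 1 probe set and 277 and 20.7 at the other, at least 3.55-fold and 3.32-fold lower. PPARGC1A, a coactivator that promotes fat burning, ran the other way. It gave 3.23 in the control and 230 with miR-127-3p, at least 2.41-fold higher, while its other probe set was dim on both arrays.

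Fatty acid uptake and activation genes differed in both directions. At the probe set that stands for the gene, 1 of 13 was past a log2 ratio of -1 and 2 past 1. ACSL1 and ACSL5 are acyl-CoA synthetases, which activate fatty acids. ACSL1 gave 1866 in the control and 859 with miR-127-3p, 2.19-fold lower, and ACSL5 gave 123 and 391, 3.13-fold higher. The higher genes were ACSL5 and FABP4, and the second, at 1.38, had a dim control signal that supports only at least 1.57-fold. The list median was 0.08. CAV1, caveolin-1, was at 0.70 at its brightest probe set. The other CAV1 probe set gave 4641 in the control and 9421 with miR-127-3p, a ratio of 1.01. SLC27A4, a fatty acid transport protein, was at 0.73.

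In fatty acid oxidation 11 of 12 genes lay within 2-fold at the probe set that stands for the gene, and the list median was 0.08. CPT1C, the brain form of the carnitine palmitoyltransferases, gave 162 in the control and 344 with miR-127-3p and was 2.10-fold higher. HADH, a short-chain dehydrogenase of the pathway, was the lowest at -0.84. CPT1A, which admits long-chain fatty acids into mitochondria, was at 0.37.

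Regulators known to act on these genes stayed within 2-fold at that probe set in all 10 cases above the filter. PPARGC1A belongs to the same list but did not pass the filter. At its brighter probe set it was at least 2.41-fold higher against a dim control signal. HIF1A and EPAS1, the oxygen-regulated subunits of the hypoxia-inducible factors, were at 0.31 and 0.21. The fatty acid receptors PPARD, PPARA and PPARG were at 0.59, -0.03 and -0.55, and the oxysterol receptor NR1H3 at -0.65. A second probe set of ARNT, the partner subunit of HIF1A and EPAS1, was at least 1.56-fold lower against a dim signal with miR-127-3p. These are transcript ratios, and protein levels were not measured.

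Of 4 lipoprotein receptor and related genes that passed the filter, 3 were lower by 2-fold or more, against 8.67% of all genes. With so few genes nothing is read from this count. VLDLR, a receptor for triglyceride-rich lipoproteins, gave 530 in the control and 140 with miR-127-3p, 3.78-fold lower. LMF1, which matures lipoprotein lipase, was 2.78-fold lower, and LRP1, a large endocytic receptor, was 2.41-fold lower. At other probe sets LMF1 reached 0.50 and LRP1 was at -0.43, so neither was past 2-fold at every probe set. SCARB1, the HDL receptor, was at -0.73.

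**Figure D4:**
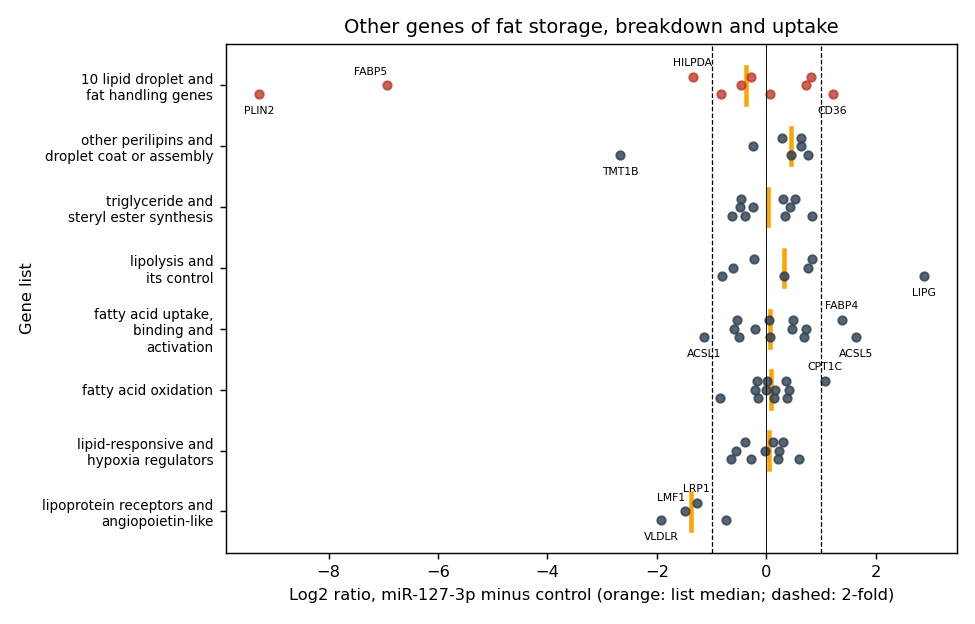
Log2 ratio, miR-127-3p minus control (1 array per group), of the 10 lipid droplet and fat handling genes (red) and of 7 other lipid gene lists (dark), each point 1 gene above the filter, with the list median in orange and dashed lines at 2-fold; LPIN1 is in 2 lists. Among the points shown, PLIN2 and FABP5 lie far left of the other lists, whose lowest is TMT1B at -2.67 and highest LIPG at 2.89. The values of PLIN2 and FABP5 both rest on a dim signal with miR-127-3p. The filter kept out PNPLA4 at -6.25, SLC27A2 at -5.81 and -3.69 and G0S2 at -4.61, which were also dim with miR-127-3p. It also kept out PPARGC1A at 5.76, which was dim in the control.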

How the data were processed

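Total RNA of 2 LN229 cultures was labelled with biotin by an Affymetrix 3′ kit and hybridised to 1 array each, per the labels' protocols. The authors deposited signal intensities per probe set on a linear scale, and the software behind them is not given in the sources used here. Groups came from the genotype labels. The annotation gave 41091 probe sets 1 symbol, 1801 several and 11721 none, 62 control probe sets apart, and 99.9% of the first were matched to RefSeq by gene identifier. Probe sets were kept where the mean of log2(signal + 1) over both arrays exceeded the median, a signal of about 83.0. The median ratio of 0.01 was subtracted. The pseudocount of 1 makes a fold against a dim signal smaller than the plain ratio of the signals, and a larger pseudocount makes it smaller still. The log2 ratio of PLIN2 was -7.10 with a pseudocount of 16 and -6.23 with 32, so its size depends on this choice.

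Members and lists were chosen with earlier results of these data known. Named genes were all members, and in each other list those past 2-fold or else the highest and lowest, with relatives of PLIN2 and FABP5 and some others added after their values were seen. The steps were run on simulated arrays only to see that known moderate shifts came back. The noise there was the same at all signals, and signals as far apart as those of PLIN2 and FABP5 were not simulated. Python 3.11.15, numpy 2.4.6, pandas 2.3.3, statsmodels 0.14.6 and matplotlib 3.10.9 were used.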

Additional observations from a re-analysis of the deposited data

How the results depend on the processing

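With 1 array per group the number of arrays limits all values. No paired analysis was possible because each group has 1 array. Of 104 values of the 10 genes under 12 alternatives, 97 moved by less than the probe set spread, 7 moved by more and none changed sign. PLIN2 ranged from -9.30 to -4.96 and FABP5 from -6.97 to -5.85, the smallest with dim signals set to the array median, and ABHD5 reached 0.10 with the mean of its probe sets. The number of members higher was 3 of 10 at 1.5-fold, against 14.5% of all genes, and 0 at 3-fold, against 1.57%. At 2-fold it was 0 with a filter at the 75th percentile, against 3.31%. Without probe sets that carry a cross-match suffix it was 0, against 5.59%. Where either array had to exceed its 75th percentile it was 0, against 4.27%. CD36 did not enter under the last 3. The number lower was 1 with the filter at the 75th percentile, against 4.95% of all genes, and PLIN2 and FABP5 did not pass that filter. The median of the members was -0.235 with the filter at the 75th percentile and -0.61 without suffixed probe sets, each on 4 members, and -0.93 with the last of these settings, which was chosen after seeing the data and kept 6 members. Of 62 other lipid genes, 12 were lower and 12 higher at 1.5-fold, against 18.1% and 14.5% of all genes. At 3-fold 2 were lower and 2 higher, against 3.94% and 1.57%. With no filter the numbers were 17 and 8 of 85, against 17.2% and 12.8%. With the filter at the 75th percentile they were 2 and 0 of 47, against 4.95% and 3.31%. Where either array had to exceed it they were 3 and 1 of 49, against 7.66% and 4.27%. The number lower was 3 of 62 with the mean of probe sets, against 8.18% of all genes. Without suffixed probe sets it was 3 of 46, against 8.86%. Quantile normalization, removal of a loess trend (span 0.3), uncentred values, scaling to the 75th percentile and pseudocounts of 16 and 32 changed none of these counts by over 1.5 times.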
